A study of Mus musculus with 6 samples.

Results

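Denervation response genes are those whose RNA level in a muscle fiber changes when the fiber loses its motor nerve, and the genes described here are those of this response outside the acetylcholine receptor itself. They were 8 genes taken by symbol, namely Ncam1, Runx1, Gadd45a, Scn4a, Hdac4, Hdac9, Dach2 and Fbxo30, out of 55416 genes in the count table, and all 8 had enough counts to be tested among 15623 genes. Total RNA was sequenced from the tibialis anterior (TA) muscle, a fast muscle of the lower leg, of naturally aged mice, with 3 WT and 3 SELENOW KO libraries. Both groups came from mice on a C57BL/6N background, male as the methods describe aged mice, kept without other treatment until 24 months. The KO mice carry a CRISPR-Cas9 deletion of an exon of Selenow, which encodes selenoprotein W, in the germ line and therefore in all tissues, not in muscle fibers alone. No animal was denervated, so a gene is called a denervation response gene here for what it is known for and not for anything done to these mice.

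In a muscle fiber that has lost its nerve, electrical activity stops and a set of genes that activity had kept low is expressed along the whole fiber. Hdac4, a class IIa histone deacetylase, accumulates and represses Dach2 and Hdac9, and these repressors normally hold down Myog, whose product myogenin then turns on receptor subunits and ubiquitin ligases. Runx1, Ncam1 and Gadd45a are known to rise in denervated muscle, Fbxo30 rises with it as an atrophy ligase, and Dach2 and Hdac9 are known to fall. Aged muscle holds some fibers that have lost their nerve, so these genes are often read in aging.

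Among the 8 genes, Runx1 was lower in KO muscle, with every KO library under every WT library. The other 7 did not pass the thresholds: Ncam1 and Gadd45a had lower KO means with widely scattered WT libraries, Scn4a and Hdac9 had higher KO means, and Hdac4, Dach2 and Fbxo30 differed by less than the spread between libraries. The thresholds were those of the study, a fold change over 1.5 or under 0.7 together with p under 0.05 before adjustment, applied to edgeR's quasi-likelihood test. They called 1 of the 8 genes (12.5%), beside 5.35% of all tested genes. The gene was lower in KO, as were 3.14% of all tested genes, and 0 of the 8 were called higher, beside 2.21%. By p alone 1 of the 8 passed, beside 9.89% of all tested genes. Groups that did not overlap were found for the same 1 of 8 genes, beside 15.4% of all tested genes, or 7.87% with KO below WT. The median log2 fold change of the 8 genes was -0.17, and that of all tested genes was -0.0042. By edgeR 0 of the 15623 genes had an adjusted p under 0.05, while 1545 had an unadjusted p under 0.05 and DESeq2 gave 45 genes with an adjusted p under 0.05. An exact permutation test of 3 libraries against 3 reaches 0.1 at the lowest, and the p values measure the spread between these libraries.

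The libraries held 25351976 to 29111213 counts in WT and 27345022 to 27815342 in KO, and 3 counts came to a CPM of 0.0934 to 0.122. CPM is a gene's count on a common scale for all libraries, corrected by edgeR's TMM factors. Genes of the mitochondrial genome took 29.1% to 37.3% of the counts in WT and 35.4% to 40.4% in KO. Skeletal muscle fiber markers (Ckm, Acta1, Mylpf, Myh4, Tnnt3 and Atp2a1) summed to a CPM of 73600 to 99700 in WT and 82820 to 97070 in KO, which fits the labelled tissue. Selenow, the targeted gene, had a CPM of 219 to 268 in WT and 193 to 212 in KO, a log2 fold change of -0.25 (standard error, SE, 0.14, adjusted p = 0.604 in edgeR). Its counts are per gene, so the deleted exon was not measured by itself. WT replicate 3 stood apart in leukocyte markers, with a summed CPM of 80.2, where the other WT libraries had 33.6 and 22.3 and the KO libraries 31.8, 22.2 and 20.8.

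**Figure D1:**
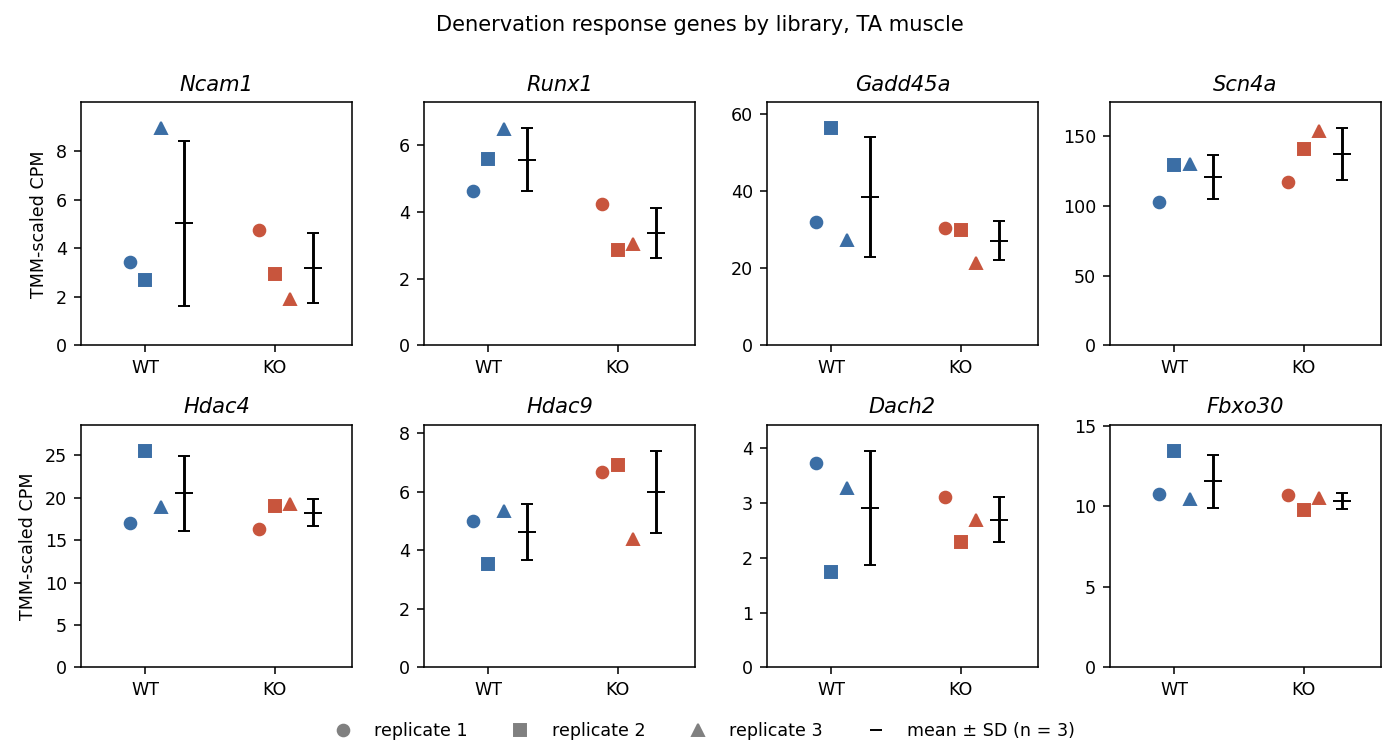
TMM-scaled CPM of the 8 denervation response genes in each library (vertical axes, from 0), with WT in blue, KO in red, marker shapes for replicates 1 to 3 and bars for the mean ± SD (n = 3). The groups were apart for Runx1, with WT libraries at 4.62 to 6.49 and KO libraries at 2.85 to 4.23, and overlapped for the other 7 genes.

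Runx1 (ENSMUSG00000022952) encodes a runt-domain transcription factor that is nearly silent in innervated adult fibers and is induced after denervation, where it limits wasting, and it is also a master regulator of blood cell formation. The gene lies on the minus strand of chromosome 16 from 92601466 to 92826149 in GRCm38, a span of 224.7 kb. It is transcribed from a distal and a proximal start, and the 250 bases before each are given because the counts are per gene and cannot tell the starts apart. The sequences are RefSeq windows of GRCm38.p6 on the minus strand, read 5′ to 3′ and ending just before the start, at chr16:92826075-92826324 for the distal and chr16:92697330-92697579 for the proximal start. Capitals mark the E-box CANNTG, the core letters bound by myogenin and MyoD.

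Runx1 distal start: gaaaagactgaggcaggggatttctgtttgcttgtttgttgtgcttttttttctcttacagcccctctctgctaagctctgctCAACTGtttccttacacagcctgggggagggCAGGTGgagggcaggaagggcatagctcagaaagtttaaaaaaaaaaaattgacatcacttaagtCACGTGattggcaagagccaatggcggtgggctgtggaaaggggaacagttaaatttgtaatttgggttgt
Runx1 proximal start: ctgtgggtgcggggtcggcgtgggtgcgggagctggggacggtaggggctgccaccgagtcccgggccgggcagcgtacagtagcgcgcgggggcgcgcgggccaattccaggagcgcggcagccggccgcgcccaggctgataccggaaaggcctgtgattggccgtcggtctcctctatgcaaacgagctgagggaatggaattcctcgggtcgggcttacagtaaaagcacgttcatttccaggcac

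The distal window held 3 E-boxes, the first letters of which lie 167, 136 and 71 bases before the start, and the proximal window held none. The windows differed also in base composition, with 45.6% G and C in the distal and 67.6% in the proximal window. Of 32851 such windows of all genes, 66.2% hold at least 1 CANNTG, so its presence is common. Neither window held CAGCTG, the E-box form that myogenin prefers, the RUNX motif TGTGGT or the MEF2 motif, on either strand. These are matches of letters, and no binding was measured.

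In replicate order, 114, 179 and 197 reads were counted in WT and 105, 70 and 81 in KO. As CPM these were 4.62, 5.57 and 6.49 in WT and 4.23, 2.85 and 3.03 in KO. All KO libraries were below all WT libraries, with KO replicate 1 close to WT replicate 1 and the other KO libraries well below. The mean CPM was 5.56 ± 0.932 in WT and 3.37 ± 0.749 in KO (SD, n = 3 per group), and the log2 fold change was -0.72 (SE 0.21, 95% interval -1.18 to -0.27, adjusted p = 0.316 in edgeR). Its unadjusted p was 0.00464 in edgeR, and the exact permutation test on log2 CPM gave p = 0.1 (two-sided), the smallest the design allows. With each library left out in turn, the log2 fold change ranged from -0.92 to -0.60, and Runx1 passed the thresholds in all 6 of these fits. Without the filter on low counts its adjusted p was 0.0432 (edgeR), and over all alternatives the adjusted p ranged from 0.0432 to 0.556.

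Runx1 is expressed by leukocytes as well as by fibers, and its highest library, WT replicate 3, was the one with the highest leukocyte markers. In bulk muscle, fewer cells of a type and less RNA per cell cannot be told apart. Of the 9 leukocyte markers 8 were tested, 6 had a lower and 2 a higher estimate in KO, and their median log2 fold change was -0.82, the direction of Runx1. Of these, Cd3e, a T cell receptor subunit, passed the thresholds as higher and Csf1r, the receptor of macrophage growth factor, as lower in KO. Lyz2, the most abundant, had a CPM of 37.2 in WT replicate 3 and 4.04 to 14.9 elsewhere. Nkg7, a marker of cytotoxic lymphocytes, was at 0 counts in 3 of the 6 libraries. Without WT replicate 3, Runx1 had a log2 fold change of -0.60 (SE 0.23, unadjusted p = 0.0239 in edgeR) and passed the thresholds. The CPM of Csf1r in the other libraries was 4.99 and 4.61 in WT and 4.35, 2.45 and 4.26 in KO. Csf1r too was thus lower in every KO library without WT replicate 3. The groups of the other markers with a lower estimate, Ptprc, Adgre1, Itgam, Lyz2 and Cd74, overlapped in those libraries. Lyz2, for example, had 14.9 and 6.35 in WT and 10.5, 6.97 and 4.04 in KO. The part of leukocytes in the Runx1 difference was not tested.

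The antisense gene Gm26626 shares 106 bases, or 0.881%, of the annotated exons of Runx1, and had 46 counts over the 6 libraries against 746 for Runx1. The library kit named in the labels is not described there as keeping strand. If strand was not kept, reads over bases shared by a gene and its antisense partner cannot be told apart. Among relatives of Runx1, Cbfb, the subunit that RUNX proteins need to bind DNA, had a CPM of 39.4 to 60.2 in WT and 42.0 to 65.8 in KO with a log2 fold change of 0.22 (SE 0.20). Runx2 had a CPM of 0.560 to 1.09 in WT and 0.299 to 1.37 in KO, and Runx3 was too low to be tested. Neither Cbfb nor Runx2 passed the thresholds.

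Over the 6 libraries, the protein-coding genes with a mean CPM of at least 1 whose log2 CPM followed Runx1 most closely were Ric8a (Pearson's r = 0.996), Atf6 (r = 0.992) and Mak16 (r = 0.981). Among 10883 genes compared, 28 had an r over 0.95, which is a description over 6 points that share their libraries and depth. Atf6, a sensor of unfolded protein in the endoplasmic reticulum, had a CPM of 23.9, 26.9 and 29.1 in WT and 20.9, 16.3 and 17.7 in KO. Ric8a, a chaperone of G protein alpha subunits, had 7.42, 8.31 and 8.96 in WT and 7.05, 5.95 and 5.91 in KO. Both had the order of the libraries that Runx1 had within WT, and KO replicate 1 as the highest KO library.

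**Figure D2:**
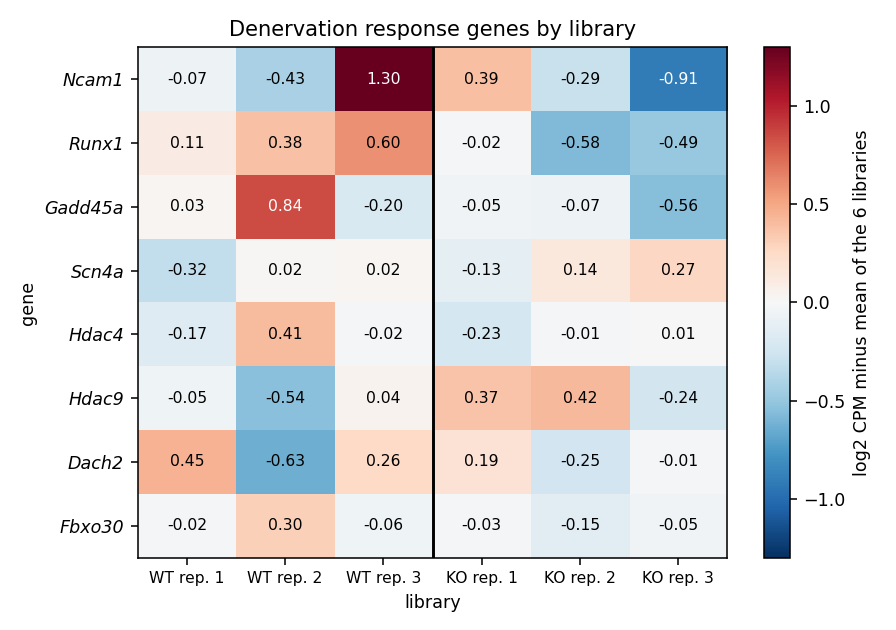
Heat map of log2 CPM of each gene (rows) in each library (columns) minus the gene's mean over the 6 libraries, with WT to the left of the line. The largest rises sit in single WT libraries: Ncam1 at 1.30 in WT replicate 3 and Gadd45a at 0.84 in WT replicate 2.

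Ncam1 (ENSMUSG00000039542) encodes the neural cell adhesion molecule, which in innervated adult muscle is kept to the junction, to satellite cells and to nerve, and which spreads over the surface of denervated fibers. It lies on the minus strand of chromosome 9 from 49502136 to 49798925 in GRCm38. In replicate order, 85, 86 and 271 reads were counted in WT and 118, 72 and 51 in KO. The CPM was 3.45, 2.68 and 8.93 in WT and 4.75, 2.94 and 1.91 in KO. WT replicate 3 was far above the other 5 libraries, whose WT and KO values were interleaved. KO minus WT on the log2 scale came to -0.65 with a SE of 0.57 (95% interval -2.08 to 0.77, adjusted p = 0.750 in edgeR), which does not pass the thresholds, and the exact permutation p was 0.5 (two-sided). Without WT replicate 3 it was 0.063 (SE 0.35), so the lower KO mean rested on that library. Leaving out any other library gave values from -1.06 to -0.39.

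WT replicate 3 was also the highest library for the leukocyte markers and for the fibro-adipogenic markers (summed CPM 214.7, against 63.6 to 126.2 elsewhere), and their part in the Ncam1 value was not tested. Schwann and satellite cells also hold Ncam1. Schwann cell markers, of glia that wrap the nerve, summed to 11.5, 7.41 and 12.7 in WT and 11.4, 9.66 and 15.6 in KO, with 5 of 9 markers tested and Gfap at 0 counts in 5 of 6 libraries. Satellite cell markers summed to 11.6, 11.1 and 14.1 in WT and 13.0, 11.5 and 13.4 in KO, with 5 of 6 markers tested, and Pax7, their defining factor, had a CPM of 0.403 to 0.757. WT replicate 3 had the highest satellite cell sum of the 6 libraries and was the highest for 3 of the 5 tested markers, Pax7, Cdh15 and Chodl. None of the tested Schwann or satellite cell markers passed the thresholds, beside 5.35% of all tested genes. The part of these cells in the Ncam1 value was not tested.

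The antisense gene Gm11149, which shares 417 bases or 4.81% of the exons of Ncam1, had 19, 32 and 93 counts in WT and 41, 22 and 14 in KO. These were 22.4% to 37.2% of the Ncam1 count of the same library in WT and 27.5% to 34.7% in KO. The antisense gene was thus also highest in WT replicate 3. Of the genes that work with NCAM, St8sia2, which adds polysialic acid to it in young and denervated muscle, was too low to be tested, with a CPM of 0.659 in WT replicate 3 and at most 0.0811 in the other libraries. Ncam2 was at 0 counts in 5 of 6 libraries. Gfra1, a co-receptor of the nerve growth factor GDNF that also binds NCAM, had a CPM of 0.406, 0.654 and 0.560 in WT and 0.604, 0.979 and 1.42 in KO (log2 fold change 0.88, SE 0.42, adjusted p = 0.520 in edgeR). Fgfr1, a growth factor receptor that binds NCAM, had a log2 fold change of 0.39 (SE 0.24), and neither passed the thresholds.

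Gadd45a (ENSMUSG00000036390) encodes a small nuclear stress protein that rises early in denervated, fasted and immobilized muscle and drives fiber atrophy. It is a compact gene on the minus strand of chromosome 6 from 67035096 to 67037457 in GRCm38. In replicate order, 788, 1806 and 829 reads were counted in WT and 752, 732 and 570 in KO. The CPM was 32.0, 56.2 and 27.3 in WT and 30.3, 29.8 and 21.3 in KO. WT replicate 2 was nearly double the other WT libraries, which overlapped the KO libraries. KO minus WT came to a log2 fold change of -0.51 (SE 0.29, 95% interval -1.18 to 0.17, adjusted p = 0.624 in edgeR), short of the lower threshold at -0.515 and of the p threshold, with an exact permutation p of 0.4 (two-sided). Without WT replicate 2 it was -0.13 (SE 0.18), and without WT replicate 3 it was -0.70 (unadjusted p = 0.0246, edgeR) and passed the thresholds. It passed them also without the filter on low counts, with a log2 fold change of -0.52 and an adjusted p of 0.0596 in edgeR. The other removals gave -0.62 to -0.36. With all 6 libraries, its unadjusted p was 0.0384 in DESeq2, and 0.0217 in edgeR with replicate number added to the model. The log2 fold changes there, -0.506 and -0.45, were short of the fold threshold.

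The gene E230016M11Rik on the opposite strand shares 337 bases, or 19.1%, of the exons of Gadd45a. It had 366, 891 and 386 counts in WT and 379, 386 and 314 in KO, which is 46.4% to 49.3% of the Gadd45a count of the same library in WT and 50.4% to 55.1% in KO. Both genes were therefore highest in WT replicate 2. If strand was not kept, reads over the shared bases cannot be told apart, while reads over the other exonic bases can. Neither of the other family members passed the thresholds. Gadd45b had a CPM of 10.1 to 11.6 in WT and 9.46 to 12.4 in KO (log2 fold change 0.027, SE 0.15). Gadd45g had 11.4, 23.9 and 11.1 in WT and 24.0, 15.9 and 23.6 in KO (log2 fold change 0.45, SE 0.35). Within WT both were highest in replicate 2, as Gadd45a was, and both log2 fold changes were above 0, unlike that of Gadd45a.

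Cdkn1a, a cell cycle inhibitor that Gadd45a is known to raise in muscle, was lower in KO. Its CPM was 9.41, 12.4 and 17.4 in WT and 7.45, 6.77 and 8.60 in KO, so the groups did not overlap. The log2 fold change was -0.78 (SE 0.21, adjusted p = 0.301 in edgeR), and it passed the thresholds in all 6 fits with a library left out. Its libraries were in another order than those of Gadd45a, with WT replicate 3 the highest. Atf4, the stress transcription factor upstream of Gadd45a, had a CPM of 82.2 to 98.1 in WT and 68.4 to 83.9 in KO (log2 fold change -0.24, SE 0.14) and did not pass.

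Fbxo30 (ENSMUSG00000047648, chromosome 10 from 11281330 to 11298052 in GRCm38, plus strand) encodes MUSA1, an F-box ubiquitin ligase that BMP and SMAD signaling holds down and that rises in denervated muscle. Its counts were 265, 432 and 317 in WT and 265, 240 and 281 in KO. The CPM was 10.7, 13.5 and 10.4 in WT and 10.7, 9.79 and 10.5 in KO, so 5 of the libraries lay together and WT replicate 2 was above them. For Fbxo30 the log2 fold change was -0.16 (SE 0.14, 95% interval -0.47 to 0.15, adjusted p = 0.737 in edgeR). That interval leaves out a fold change of 0.7, and without WT replicate 2 the value was -0.037.

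The other atrophy ligases were likewise highest in WT replicate 2 in 3 of 6 cases. None of the 6 passed the thresholds, beside 5.35% of all tested genes. Trim63, which encodes MuRF1, had a CPM of 116, 424 and 175 in WT and 166, 132 and 182 in KO (log2 fold change -0.58, SE 0.51). Fbxo32, which encodes Atrogin-1 and is named here after its values were seen, had 228, 693 and 364 in WT and 281, 284 and 391 in KO. Traf6, an adaptor ligase, had the lowest p of the list, with a log2 fold change of 0.22 (SE 0.17). Over all tested genes, WT replicate 2 was the highest library for 16.0%. Of the 8 denervation response genes it was the highest for 3, namely Gadd45a, Hdac4 and Fbxo30, a count noticed in the data.

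In the BMP and SMAD list, 11 of 12 genes were tested, with 4 estimates higher and 7 lower in KO. Past the thresholds, 1 was higher and 0 were lower in KO, beside 2.21% and 3.14% of all tested genes. The gene past the thresholds was Acvr2b, a receptor for myostatin and activins. Its CPM was 1.95, 1.74 and 1.78 in WT and 2.82, 3.51 and 2.62 in KO. Its log2 fold change was 0.71 (SE 0.22, adjusted p = 0.340 in edgeR), and without KO replicate 2 it no longer passed the thresholds. Mstn, which encodes myostatin, had 25.4, 33.2 and 22.3 in WT and 22.1, 21.6 and 21.6 in KO (log2 fold change -0.31, SE 0.15, unadjusted p = 0.0600 in edgeR). The groups of Mstn did not overlap, and it passed neither threshold.

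Scn4a (ENSMUSG00000001027, chromosome 11 from 106318592 to 106353288 in GRCm38, minus strand) encodes the voltage-gated sodium channel of adult skeletal muscle, which carries the action potential over the fiber. Its counts were 2528, 4158 and 3947 in WT and 2903, 3447 and 4106 in KO. The CPM was 102.5, 129 and 130.0 in WT and 117, 140.5 and 154 in KO, and the ranges overlapped, with WT replicate 1 the lowest. For Scn4a the log2 fold change was 0.18 (SE 0.16, 95% interval -0.16 to 0.52, adjusted p = 0.731 in edgeR), and that interval leaves out a fold change of 1.5.

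The 4 other tested genes of the sodium channel list included 0 past the thresholds, beside 5.35% of all tested genes. Their median log2 fold change was 0.079. Scn4b, a beta subunit, had a CPM of 175 to 191 in WT and 165 to 206 in KO (log2 fold change 0.060, SE 0.14). Nedd4l, a ubiquitin ligase that acts on sodium channels, had the lowest p of the list, with a log2 fold change of 0.097 (SE 0.13).

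Hdac4 (ENSMUSG00000026313, chromosome 1 from 91928779 to 92195699 in GRCm38, minus strand) had counts of 420, 820 and 573 in WT and 406, 466 and 515 in KO. The CPM was 17.0, 25.5 and 18.9 in WT and 16.4, 19.0 and 19.3 in KO. As with Fbxo30, WT replicate 2 was above the 5 other libraries, which overlapped. Its log2 fold change was -0.17 (SE 0.16, 95% interval -0.52 to 0.17, adjusted p = 0.751 in edgeR), and it was 0.020 without WT replicate 2. In GRCm38 annotation 3536 exonic bases of Hdac4, or 22.4%, are shared with the opposite-strand gene Gm26720, which was not matched to a row here.

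Hdac9 (ENSMUSG00000004698) encodes a class IIa deacetylase, known in muscle mostly as a short form without the catalytic domain that binds MEF2 factors and represses their targets, and it falls after denervation. It lies on the minus strand of chromosome 12 from 34047580 to 34917095 in GRCm38, a span of 869.5 kb with more than 1 start. The 250 bases before each RefSeq start are given because, among the 10 windows matched for 7 of the 8 genes, they were those that held CAGCTG. They lie at chr12:34917096-34917345 and chr12:34528890-34529139 on the minus strand of GRCm38.p6, and capitals mark CANNTG, of which CAGCTG is a form.

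Hdac9 first start: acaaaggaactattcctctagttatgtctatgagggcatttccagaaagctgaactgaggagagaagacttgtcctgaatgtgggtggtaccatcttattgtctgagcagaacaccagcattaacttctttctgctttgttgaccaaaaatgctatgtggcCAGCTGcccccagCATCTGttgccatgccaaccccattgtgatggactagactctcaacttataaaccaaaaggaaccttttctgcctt
Hdac9 second start: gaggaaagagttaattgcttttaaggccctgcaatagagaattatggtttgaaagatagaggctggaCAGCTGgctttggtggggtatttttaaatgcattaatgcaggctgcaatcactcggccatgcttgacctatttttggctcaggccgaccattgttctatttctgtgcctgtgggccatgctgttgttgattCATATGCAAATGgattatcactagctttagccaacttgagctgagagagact

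CAGCTG begins 89 bases before the first start and 183 bases before the second. Of 32851 windows of all genes, 13.0% hold it. The first window held 2 and the second held 3 CANNTG in all, CAGCTG included. The RUNX motif TGTGGT, present in 14.0% of all windows, was found in 1 of the 10, before a start of Dach2, and the MEF2 motif, present in 2.92%, in 0.

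The counts of Hdac9 were 123, 114 and 162 in WT and 166, 170 and 117 in KO. Its CPM was 4.99, 3.55 and 5.34 in WT and 6.69, 6.93 and 4.38 in KO. KO replicates 1 and 2 were above all WT libraries and KO replicate 3 was within their range. The log2 fold change was 0.38 (SE 0.22, 95% interval -0.099 to 0.85, adjusted p = 0.609 in edgeR), with an exact permutation p of 0.3 (two-sided). Without KO replicate 3 it was 0.56 (unadjusted p = 0.0248, edgeR), still under the fold threshold, and the other removals gave 0.21 to 0.49.

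Dach2 (ENSMUSG00000025592, chromosome X from 113297510 to 113836386 in GRCm38, plus strand) encodes a corepressor that holds down Myog in innervated muscle. It was among the lowest of the 8 genes, with 92, 56 and 99 counts in WT and 77, 56 and 72 in KO. The CPM was 3.73, 1.74 and 3.26 in WT and 3.10, 2.28 and 2.69 in KO, and all KO libraries lay within the WT range. Its log2 fold change was -0.11 (SE 0.28, 95% interval -0.72 to 0.51, adjusted p = 0.931 in edgeR), and its sign was positive without WT replicate 1, at 0.11. At this depth the interval includes a fold change of 0.7. Its relative Dach1 had a CPM of 1.37 to 2.92 in WT and 2.13 to 3.10 in KO (log2 fold change 0.23, SE 0.29).

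**Figure D3:**
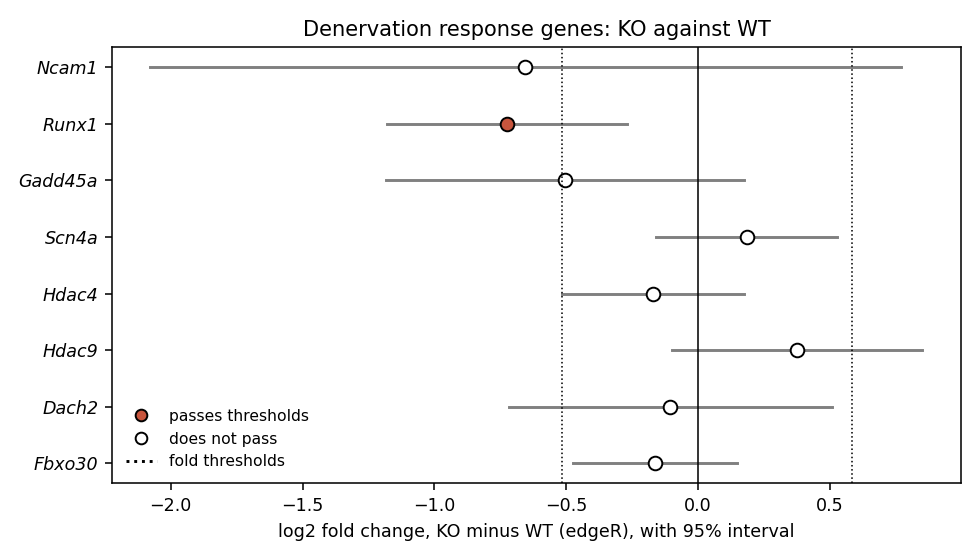
Log2 fold change, KO minus WT, of each gene (points) with its 95% interval (lines) in edgeR; dotted lines mark the fold thresholds at -0.515 and 0.585 and the filled point passes the thresholds. The interval of Runx1 lies wholly below 0, and that of Ncam1, from -2.08 to 0.77, is the widest of the 8.

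Read along the pathway, the values were these: Hdac4 at -0.17, its targets Dach2 at -0.11 and Hdac9 at 0.38, and Myog, the gene both repress, at -1.27 on the log2 scale of KO minus WT. Of these 4 genes Myog passed the thresholds. Its CPM was 5.68, 3.64 and 7.15 in WT and 3.30, 1.51 and 2.02 in KO, and the groups did not overlap. Myog passed the thresholds in all 6 fits with a library left out. Myod1, the related factor that acts earlier in muscle formation, had 6.41, 6.69 and 8.79 in WT and 4.15, 5.83 and 4.60 in KO, and it no longer passed without WT replicate 3 or without KO replicate 1. Myf5 and Myf6 did not pass, so 2 of the 4 myogenic factors were called, both lower, beside 3.14% of all tested genes.

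Among the 12 other deacetylases and MEF2 factors, all tested, 0 passed the thresholds, beside 5.35% of all tested genes. Their median log2 fold change was 0.062. Hdac7, another class IIa member, had the lowest p, with a CPM of 6.33, 4.95 and 4.35 in WT and 7.98, 7.50 and 5.65 in KO (log2 fold change 0.44, SE 0.19, unadjusted p = 0.0399 in edgeR). Hdac2, a class I member, had 25.96, 24.9 and 28.2 in WT and 29.04, 31.8 and 29.6 in KO, groups that did not overlap (log2 fold change 0.20, SE 0.12). Hdac5, the closest relative of Hdac4 in muscle, had 22.5 to 24.7 in WT and 23.5 to 25.4 in KO (log2 fold change 0.060, SE 0.12). Of the 5 tested relatives of Dach2 and its partners 0 passed, beside the same 5.35%, and their median was 0.026. Six4, a homeobox factor, had a log2 fold change of 0.064 (SE 0.12).

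Levels of different genes were compared per length, as CPM divided by the counted length in kilobases (RPKM). In WT, Gadd45a was highest at 21.8 ± 8.80 and Scn4a followed at 17.1 ± 2.23 (SD, n = 3), and in KO Scn4a was at 19.5 ± 2.64 and Gadd45a at 15.4 ± 2.87 (SD, n = 3), so these neighbours did not differ beyond their spread. Fbxo30 had 2.22 ± 0.318 in WT and Hdac4 1.30 ± 0.283 (SD, n = 3), and over the 6 libraries the lowest Fbxo30 level, 1.88, was above the highest Hdac4 level, 1.61. Ncam1 (0.579 ± 0.393), Runx1 (0.463 ± 0.0775), Hdac9 (0.312 ± 0.0639) and Dach2 (0.295 ± 0.105) followed in WT (SD, n = 3). Over the 6 libraries the range of each overlapped that of the next. In WT alone, every Runx1 library was above every Hdac9 library. The counted length joins all exons of a gene, and genes with long alternative exons, such as Hdac4 and Hdac9, read low on this scale.

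**Figure D4:**
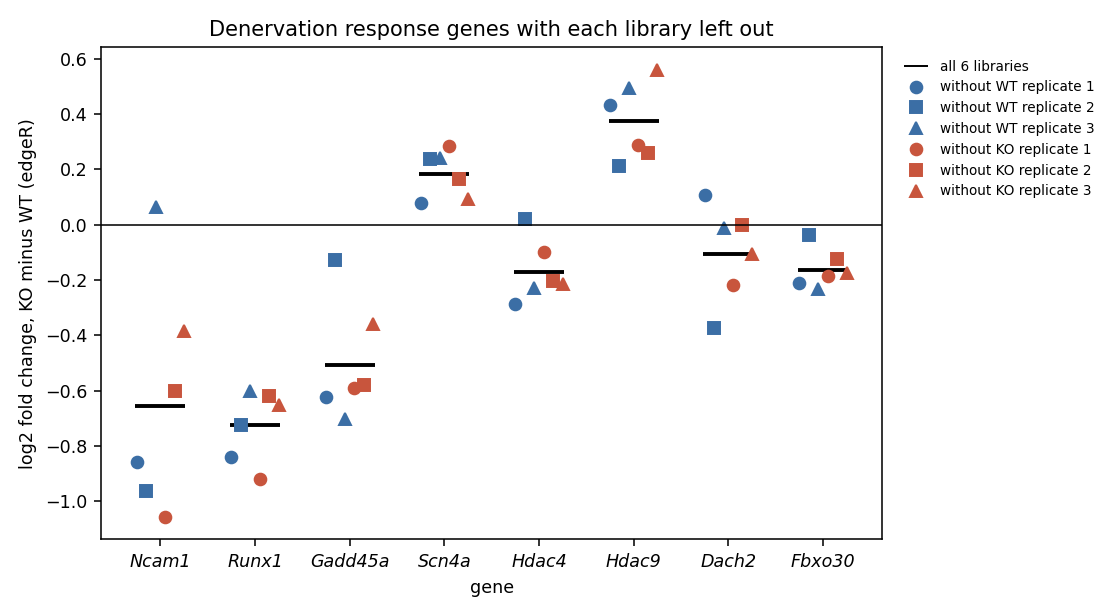
Log2 fold change, KO minus WT (vertical axis, edgeR), of each gene with all 6 libraries (black bars) and with 1 library left out (blue for a WT, red for a KO library). Runx1 stayed between -0.92 and -0.60, whereas Ncam1 was at 0.063 without WT replicate 3 and Gadd45a at -0.13 without WT replicate 2.

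Relative spread within a genotype differed between the genes. The coefficient of variation in WT was 67.9% for Ncam1, 40.3% for Gadd45a and 35.7% for Dach2, and 13.0% to 21.8% for the other 5. In KO it was 45.0% for Ncam1 and 4.59% to 23.5% for the other 7. In WT the 2 genes with the largest spread owed it to different libraries, Ncam1 to replicate 3 and Gadd45a to replicate 2, as the heat map of library deviations shows.

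The receptor and synapse genes, which react to denervation together with those above, held 13 tested genes, with 9 estimates lower and 4 higher in KO. Past the thresholds, 2 were lower and 0 higher in KO, beside 3.14% and 2.21% of all tested genes. Chrna1, the alpha subunit, had a CPM of 7.83, 10.7 and 19.1 in WT and 6.53, 7.26 and 3.85 in KO, and Chrng, the fetal subunit, had 20, 22 and 80 counts in WT and 13, 3 and 2 in KO. Chrna1 no longer passed without KO replicate 1 or KO replicate 3, and both genes were highest in WT replicate 3, like Ncam1 and Runx1. Chrne, the adult subunit, had 3.39 to 4.27 in WT and 3.87 to 6.28 in KO and did not pass.

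In all, 80 genes in 11 lists were taken as the rest of the response, 75 were tested, and 6 passed the thresholds (8%, beside 5.35% of all tested genes): Acvr2b was higher, and Chrna1, Chrng, Myog, Myod1 and Cdkn1a were lower in KO. Groups did not overlap for 10 of the 75 (13.3%), beside 15.4% of all tested genes. The median log2 fold change was -0.017, with 36 genes above and 39 below 0. In a mixed list of 10 tested genes known from denervated or stressed muscle, 0 passed: Mt1, a metallothionein, had a log2 fold change of -1.42 (SE 0.77) and Myh3, embryonic myosin, had 51.6, 121 and 84.1 in WT and 12.2, 12.3 and 57.9 in KO. Earlier results of these data, several of these genes among them, were known when the lists were written, so the counts are no independent evidence of a direction.

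**Figure D5:**
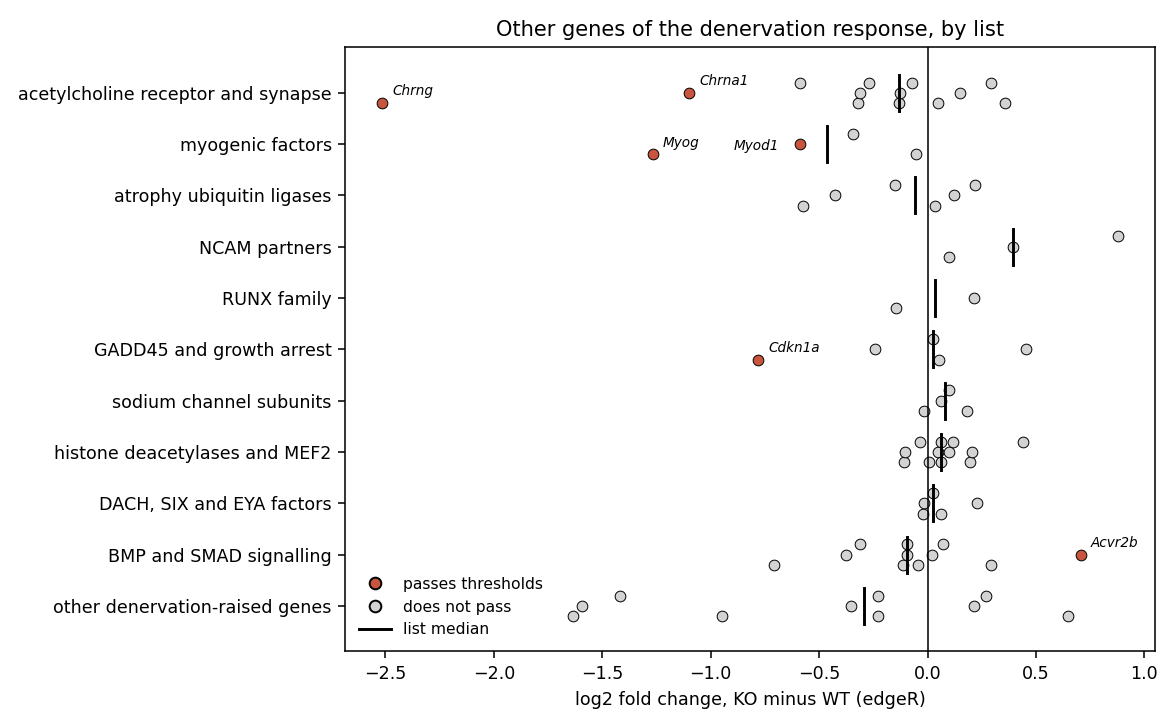
Log2 fold change, KO minus WT (horizontal axis, edgeR), of the 75 other tested genes by list (rows), with filled red points past the thresholds and bars at list medians. The red points are 1 gene above 0, Acvr2b, and 5 below, from Chrng at -2.52 to Myod1 at -0.59, and the list medians lie between -0.47 and 0.39.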

How the data were processed

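The authors extracted total RNA from TA muscle, sequenced paired-end reads, used Hisat2 for alignment and featureCounts for counting; the deposited values are raw counts per gene and library, without normalization. The methods name GRCm38 and the submitters' processing notes GRCm39, so positions given here come from GENCODE M21 and RefSeq (GRCm38), matched by gene identifier or symbol. Symbols were found for 52083 of 55416 genes. Groups and replicate numbers come from the sample titles; the WT column without a number was assigned to replicate 1, since the others name 2 and 3.

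Genes kept by filterByExpr were scaled by TMM (factors 0.893 to 1.20) and compared with edgeR (version 4.0.16, R 4.3.3), quasi-likelihood with robust estimation and Benjamini-Hochberg adjustment over 15623 genes. Standard errors are the log2 fold change over the square root of F, and log2 CPM used a prior count of 1. Alternatives were DESeq2 (version 1.42.0), its size factors, other filters, robust estimation off, no mitochondrially encoded genes, a replicate block, a log2 threshold of 1 and each library left out. Counts were also simulated for 15623 genes with this design, with the changed genes drawn from those with a mean CPM over 1. There edgeR called 90.0% of 100 genes changed by 1 on the log2 scale with the study's thresholds, and 63.0% by adjusted p. Of the unchanged genes, 15 had an adjusted p under 0.05 in edgeR. Replicates differed by more than sampling noise (chi-square per degree of freedom 21.4 to 79.6).

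The 8 genes, the lists and the markers were chosen with earlier results of these data known. Named are the 8 genes, Selenow, list genes past the thresholds or with the 2 lowest p of their list, and the 3 genes most like each called member; Fbxo32, Chrne, Myf5, Myf6, Runx3, St8sia2, Ncam2, Gadd45b, Gadd45g, Hdac5, single marker genes and the antisense genes were added after their values were seen. RefSeq windows were matched for 7 of the 8 genes. A few genes of the lists are not reported here and were left out of the list counts.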

Additional observations from a re-analysis of the deposited data

How the results depend on the processing

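Of 104 refits of the 8 genes over 13 alternatives, 98 kept direction and side of the thresholds, 0 lost a call, 2 gained one (Gadd45a) and 4 changed sign. The sign changes were Ncam1 at 0.063 without WT replicate 3, Hdac4 at 0.020 without WT replicate 2, and Dach2 at 0.11 without WT replicate 1 and 0.00011 without KO replicate 2, each from leaving out 1 library, with ranges over the 6 removals of -1.06 to 0.063, -0.29 to 0.020 and -0.37 to 0.11. Runx1 was called under all 13. As a further alternative, the log2 threshold of 1 called 0 of the 8 genes, 3 list genes and 315 of all genes. Without a filter on low counts, 2 of the 8, 10 list genes and 1780 of all genes were called, and 363 genes had an adjusted p under 0.05, against 0 in edgeR with the filter, where 1545 had an unadjusted p under 0.05. The count of adjusted p under 0.05 was 45 with DESeq2 and 4 with at least 10 counts in every library, and robust estimation turned off called 10 list genes; the cause was not tested. Leaving out 1 library called 1 to 2 of the 8 genes, 5 to 11 list genes (11 without WT replicate 1) and 764 to 1017 of all genes, with 0 to 235 adjusted p under 0.05, the 235 without KO replicate 2.

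With the replicate block, 1 of the 8 genes was called, Runx1 at -0.73, and 1 gene of the table had an adjusted p under 0.05. The block called 890 of all genes. Deviations of same-numbered libraries correlated at 0.0596, 0.0440 and -0.0736 across genes, and those of other pairs at -0.14 to 0.0925. No pairing by number was seen, but 3 libraries per group cannot exclude one.

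Runx1, Dach2, Ncam1 and Hdac9 rest on 51 to 271 counts a library, and their 95% intervals include a fold threshold. Those of Gadd45a and Hdac4, with 406 to 1806 counts a library, include the lower threshold as well. The intervals of Scn4a and Fbxo30 leave both thresholds out.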
